A study of Homo sapiens with 26 samples.

Results

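The 10 genes described here encode transcription factors that set or hold luminal and progenitor identity in the breast: GATA3, FOXA1, SPDEF, ELF3, TFAP2A, TFAP2B, TFAP2C, TBX3, SOX2 and SOX9. The list names the genes and sets no threshold on their values, though it was drawn up with earlier results of these data known; the deposited expression table names 30331 genes. RNA was sequenced from bulk tumors of ZR751, an established HR+ HER2- human breast cancer cell line, grown under the skin of female NSG mice, which lack T, B and NK cells but keep myeloid cells. Dosing began at a mean tumor volume of 150 mm3, and tumors were taken 3 hours after the last dose. Vehicle tumors came from 5 mice dosed for 3 days without drug (their treatment label reads DMSO), and sensitive tumors came from 3 mice given atirmociclib (PF-07220060), a CDK4 inhibitor, for 3 days at 60 mg/kg by mouth 2 times a day, 7 hours apart. Resistant tumors came from 5 mice given the same dose for 84 to 91 days in another study, without vehicle mice of their own here. Wherever resistant tumors are compared, the study, the length of treatment and resistance cannot be told apart. All tumors derive from 1 cell line, so the mice are replicates of the treatment and not of the disease.

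GATA3 is a zinc finger factor required for luminal cells to form and to stay differentiated. FOXA1 is a pioneer factor that opens chromatin for the estrogen receptor, and the AP-2 factors encoded by TFAP2A, TFAP2B and TFAP2C bind many of the same enhancers in luminal breast cancer. SPDEF and ELF3 are epithelial members of the ETS family. TBX3 is a T-box transcriptional repressor that acts in mammary development. SOX9 marks luminal progenitors, and SOX2 is a pluripotency factor that is low in most differentiated luminal cells.

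Promoter sequence is shown for 4 of the genes because their transcripts behaved differently: SOX2 had the largest fall of the 10, TFAP2B the second largest, GATA3 fell in both comparisons with vehicle, and SPDEF passed no test. The sequences are from RefSeq (GRCh38.p14), where 7 of the 10 genes have entries. Each runs 5′ to 3′ on the gene's strand and covers the 250 bases before the annotated start, less any base inside an exon. The positions are chr3:181711675-181711923 on the plus strand for SOX2, chr6:50818621-50818722 on the plus strand for TFAP2B, chr10:8053391-8053603 on the plus strand for 1 of the 6 GATA3 starts, and chr6:34556334-34556579 on the minus strand for SPDEF. Capitals mark matches to an AP-2 or an E2F motif.

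SOX2: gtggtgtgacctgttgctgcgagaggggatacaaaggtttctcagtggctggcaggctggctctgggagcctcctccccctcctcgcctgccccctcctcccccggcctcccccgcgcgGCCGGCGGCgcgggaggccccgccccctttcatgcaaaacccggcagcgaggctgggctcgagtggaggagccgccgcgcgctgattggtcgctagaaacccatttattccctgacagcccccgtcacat
TFAP2B: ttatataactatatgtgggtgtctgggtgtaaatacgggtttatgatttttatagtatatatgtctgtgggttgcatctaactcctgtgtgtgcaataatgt
GATA3: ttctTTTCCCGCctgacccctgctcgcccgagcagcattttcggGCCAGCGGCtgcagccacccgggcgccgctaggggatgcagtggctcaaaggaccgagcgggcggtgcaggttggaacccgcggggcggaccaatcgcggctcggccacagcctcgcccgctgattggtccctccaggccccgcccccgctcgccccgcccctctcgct
SPDEF: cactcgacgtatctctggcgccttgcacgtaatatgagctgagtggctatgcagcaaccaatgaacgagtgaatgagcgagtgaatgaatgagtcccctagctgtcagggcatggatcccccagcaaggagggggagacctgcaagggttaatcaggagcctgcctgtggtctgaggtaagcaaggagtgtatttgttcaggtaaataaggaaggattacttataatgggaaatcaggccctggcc

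Motifs of the families concerned were searched on both strands of all 250 bases before each start, in these 7 genes and in 35116 human promoters. For AP-2 factors the letters were GCCNNNGGC, which 19.8% of those promoters hold. They were found at position -131 from the SOX2 start and in 3 of the 6 GATA3 windows, at position -206 in the one shown. For GATA factors the letters AGATAA, held by 9.17% of promoters, were in no window of the 7 genes. For forkhead factors the letters TGTTTNC, held by 15.5%, were in windows of GATA3, FOXA1 and TFAP2A. For SOX factors the letters CATTGT, held by 9.29%, were in 1 GATA3 window. For ETS factors the letters GGAAGT, held by 19.5%, were in 1 GATA3 window and 1 TFAP2A window. For T-box factors the letters AGGTGTGA, held by 0.786%, were in none. For E2F, the family that CDK4 acts on through RB, the letters were TTTNNCGC, held by 5.92%. They were in 1 of the 6 GATA3 windows, the one shown, at position -246. The first of the 6, chr10:8045083-8045332, is not shown and has AP-2 and forkhead matches but no E2F match. The shares are per promoter, and a gene with 6 windows has more chances of a match than a gene with 1. None of the 7 motifs occurs in the TFAP2B, SPDEF or ELF3 window, or in 1 of the TFAP2A windows. All 250 bases of the ELF3 window lie inside an exon of the gene. A match is a description of letters and not a measured binding site.

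Each tumor gave 2 libraries, A and B, and the mean of the 2 is used for each mouse. The sources used here do not say at which step they were divided. The values are TPM, a share of all transcripts corrected for gene length, so levels of different genes can be set side by side, and the read depth behind them is unknown. For the 10 factors the median difference between libraries A and B of a mouse was 0.02 to 0.08 on the log2 scale, and the largest single difference was 0.36, for TBX3 in 1 vehicle mouse. All 10 passed the filter, a mean of 1 TPM or more in 3 or more mice, as did 14079 genes in all. Genes with a limma adjusted p under 0.05 (Benjamini-Hochberg over the 14079 genes, two-sided) are called changed. Log2 changes are differences in log2(TPM + 1), which understates changes of low genes, given relative to the median change of all genes, while the SE and the adjusted p are as fitted. The tumors are bulk tissue, so fewer cells of a type and less RNA per cell cannot be told apart.

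In vehicle tumors SPDEF was highest at 734 ± 134 TPM (SD, n = 5), followed by GATA3 at 417 ± 35.7, FOXA1 at 222 ± 10.9 and ELF3 at 191 ± 31.3 TPM. The AP-2 genes came next, with TFAP2B at 105 ± 10.3, TFAP2A at 64.8 ± 7.19 and TFAP2C at 49.8 ± 8.73 TPM. SOX9 at 39.6 ± 7.55, SOX2 at 20.4 ± 10.5 and TBX3 at 12.2 ± 2.30 TPM were the lowest of the 10. By mean level, SPDEF stood at the 98.8th percentile of all tested genes and TBX3 at the 41.3rd. Not every step in this order exceeded the spread over mice: the ranges of FOXA1 and ELF3 overlapped, as did those of TFAP2A and TFAP2C, of TFAP2C and SOX9, of SOX9 and SOX2, and of SOX2 and TBX3.

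The sensitive tumors kept the same order of means. In the resistant tumors 3 pairs of genes changed places. ELF3 lay above FOXA1 in 5 of 5 resistant mice and in 0 of 5 vehicle and 0 of 3 sensitive mice. TFAP2B went from the highest to the lowest mean of the 3 AP-2 genes, and TFAP2C went from the lowest to the highest. By mean, SOX2 fell behind TBX3 to become the lowest of the 10. In resistant mice the ranges of TFAP2C and TFAP2A overlapped, as did those of TFAP2A and TFAP2B, and TFAP2B was above TFAP2A in 2 of 5. The ranges of GATA3 and ELF3, of ELF3 and FOXA1, and of TBX3 and SOX2 overlapped there too. The percentile of SOX2 among all tested genes was 54.0 in vehicle, 55.7 in sensitive and 18.9 in resistant tumors.

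**Figure D1:**
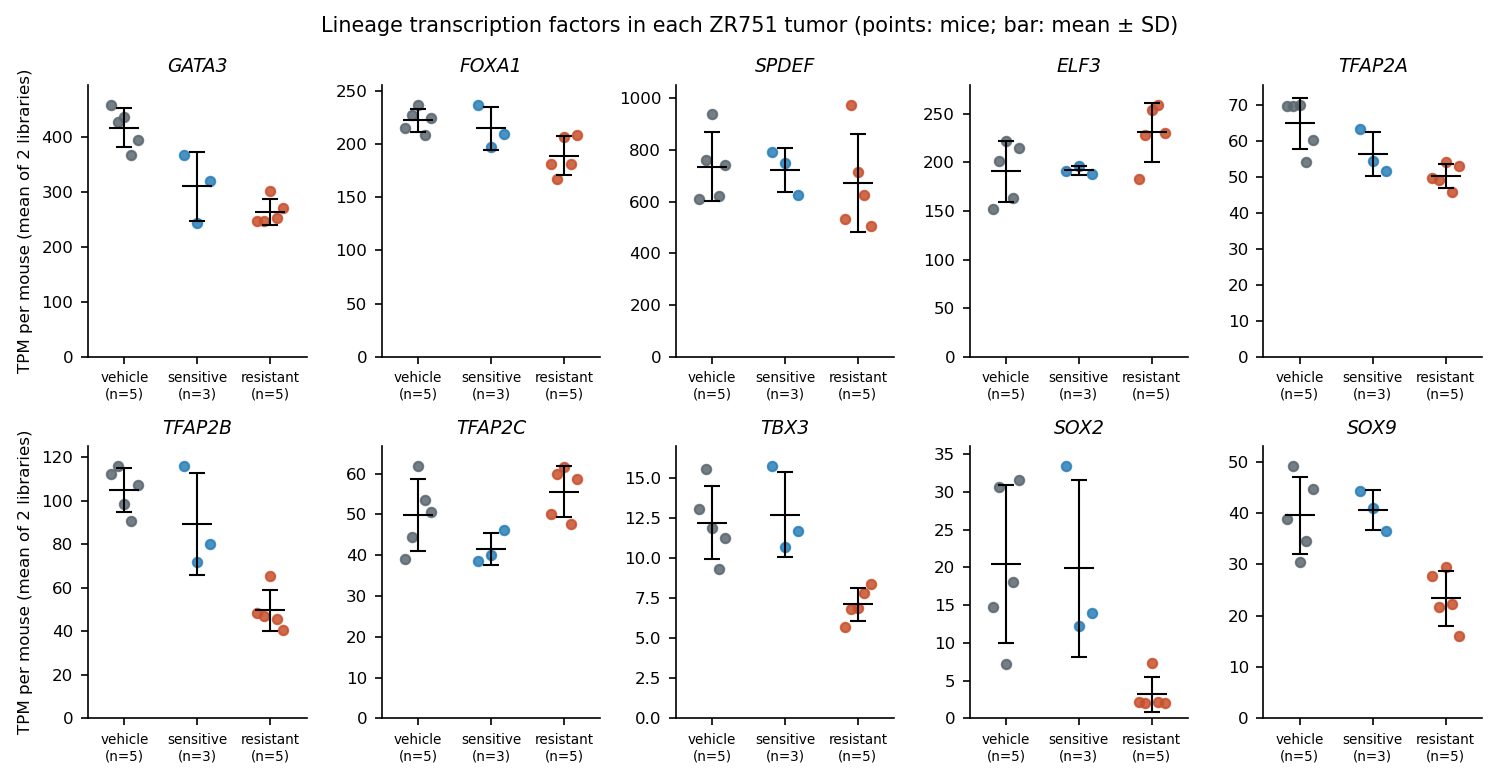
TPM of each of the 10 factors (y axes, starting at 0) in vehicle (n = 5), sensitive (n = 3) and resistant (n = 5) tumors. Each point is 1 mouse, the mean of its 2 libraries, and bars give the group mean ± SD. The resistant mice lie below every vehicle and sensitive mouse for TFAP2B, TBX3 and SOX9, and SOX2 is near 2 TPM in 4 of the 5 resistant mice.

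All but one of the calls among these factors were falls. In sensitive versus vehicle tumors, 1 of the 10 fell (GATA3) and 0 rose, beside 12.6% of all tested genes lower and 3.16% higher; 0 rose at an unadjusted p under 0.05 as well. In resistant versus sensitive tumors, 4 of 10 fell (TFAP2B, TBX3, SOX2 and SOX9) and 1 rose (TFAP2C), beside 11.6% of genes lower and 9.56% higher. In resistant versus vehicle tumors, 7 of 10 fell (GATA3, FOXA1, TFAP2A, TFAP2B, TBX3, SOX2 and SOX9), beside 32.5% of genes lower. None of the 10 rose by limma there, beside 11.5% of genes higher, and 1 was higher at an unadjusted p under 0.05 (ELF3). The median change of the 10, relative to all genes, was 0.04, -0.15 and -0.37 in the 3 comparisons. The comparisons share mice, so they are not independent of each other.

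The mouse means of the groups did not overlap for 1 of the 10 in sensitive versus vehicle (GATA3, lower, beside 16.4% of genes), and for none that was higher, beside 5.24%. In resistant versus sensitive tumors they did not overlap for 4 that were lower, beside 18% of genes, and for 1 that was higher, beside 12.3%. For resistant against vehicle tumors they did not overlap for 5 that were lower, beside 20.6% of genes, and for none that was higher, beside 6.63%. The gap was narrow for GATA3 in sensitive versus vehicle (367.26 against 367.51 TPM) and TFAP2A in resistant versus vehicle (54.075 against 54.21 TPM). For both genes, single libraries of the 2 groups overlapped. Scaling changes the genome-wide background: with median-of-ratios scaling, 771 genes were higher and 1066 lower in sensitive versus vehicle, against 445 and 1767 as deposited, and 2540 higher and 2439 lower in resistant versus vehicle, against 1624 and 4570. With quantile normalization the same counts were 938 and 989, then 2333 and 2773. Under either scaling 6 of the 10 factors were lower and 1 was higher in resistant versus vehicle tumors, FOXA1 no longer being called and ELF3 being called as higher.

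**Figure D2:**
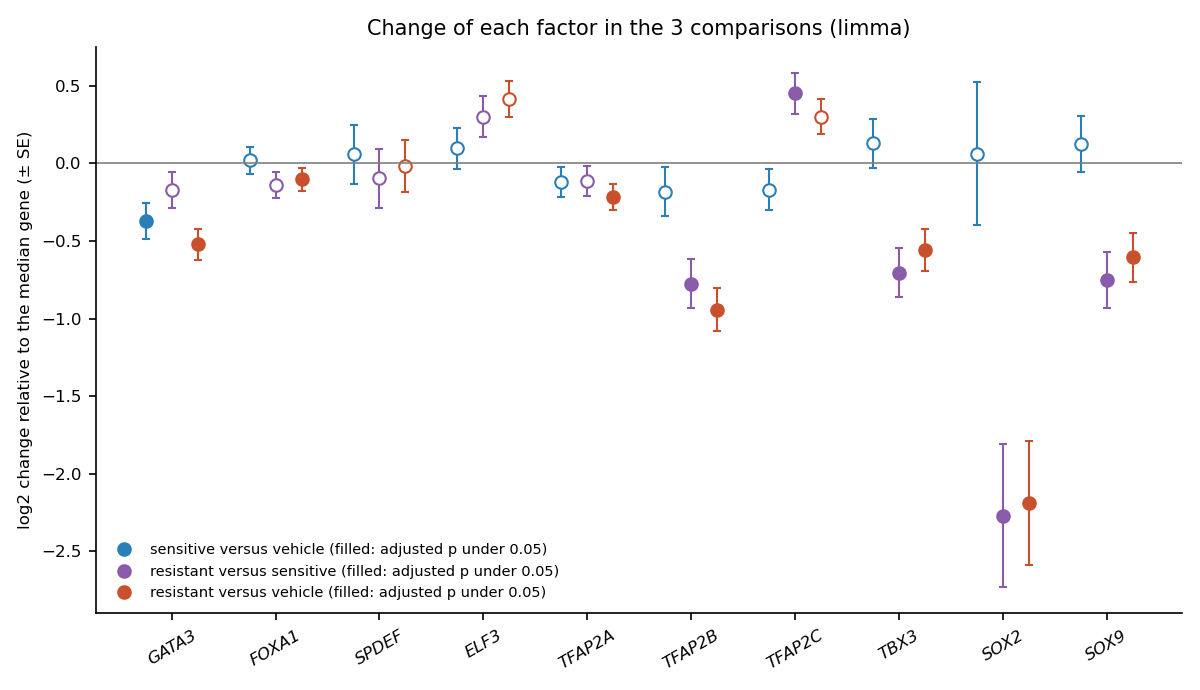
Log2 change of each factor relative to the median gene (y axis, ± SE from limma) in sensitive versus vehicle, resistant versus sensitive and resistant versus vehicle tumors. Filled circles have an adjusted p under 0.05; GATA3 is the only filled circle for sensitive versus vehicle, and SOX2 lies lowest at -2.27 and -2.19.

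GATA3 (chr10:8045378-8075203, plus strand) was the one factor of the 10 that was already lower after 3 days. Its level was 459, 427, 436, 368 and 395 TPM in the 5 vehicle mice, 367, 243 and 319.6 TPM in the 3 sensitive mice, and 247, 248, 302, 252 and 271 TPM in the 5 resistant mice. Every treated mouse lay below every vehicle mouse, though the highest sensitive mouse was within 1 TPM of the lowest vehicle mouse, and the sensitive and resistant ranges overlapped. The change was -0.37 ± 0.12 (SE) in sensitive versus vehicle (limma, adjusted p = 0.0211), with means of 309.9 ± 62.7 and 417 ± 35.7 TPM. That call was lost without sensitive mouse 6-5 (-0.22, adjusted p = 0.139), without sensitive mouse 6-6 (-0.41, adjusted p = 0.0557), with quantile normalization (-0.32, adjusted p = 0.104) and when only these 2 groups were fitted (-0.37, adjusted p = 0.0554). In resistant versus vehicle tumors GATA3 fell by 0.52 ± 0.10 (adjusted p = 2.36e-04), a call kept in all 26 alternative analyses. Between resistant and sensitive tumors the difference was -0.17 ± 0.12 (adjusted p = 0.209), which passed in 1 of 26 alternatives, without mouse 6-5 (-0.32, adjusted p = 0.0355). GATA3-AS1, a non-coding gene that overlaps GATA3 on the opposite strand, was at 12.4 ± 7.83, 12.0 ± 4.46 and 15.6 ± 2.79 TPM in vehicle, sensitive and resistant tumors, and the sources used here do not say whether the counting used strand.

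FOXA1 (chr14:37589984-37596059, minus strand) was the steadiest of the 10 among vehicle mice, with a coefficient of variation of 4.91%. Its level was 215, 227, 237, 209 and 224 TPM in vehicle mice, 237, 198 and 209 TPM in sensitive mice, and 182, 167, 207, 181 and 209 TPM in resistant mice. The resistant range reached up into the vehicle range. As fitted, FOXA1 fell by 0.24 ± 0.07 in resistant versus vehicle tumors (adjusted p = 0.0173), of which all but -0.10 was the median change of all genes. Quantile normalization ended the call (adjusted p = 0.0662), as did median-of-ratios scaling (adjusted p = 0.243). The other two comparisons gave 0.02 ± 0.08 for sensitive versus vehicle (adjusted p = 0.708) and -0.14 ± 0.08 for resistant versus sensitive (adjusted p = 0.134). With quantile normalization the latter was called, at -0.19 (adjusted p = 0.0420). The ratio of GATA3 to FOXA1 within a mouse was 1.76 to 2.13 in vehicle, 1.23 to 1.55 in sensitive and 1.30 to 1.49 in resistant mice, so the vehicle mice stood apart from both treated groups.

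SPDEF (chr6:34537802-34556333, minus strand), an ETS factor of secretory epithelium, showed no change that passed in any comparison. It was at 608, 762, 939, 620.3 and 741 TPM in vehicle mice, 792, 747 and 624.9 TPM in sensitive mice, and 534, 974, 715, 623 and 506 TPM in resistant mice. The highest and the lowest tumor of all 13 were both resistant. The changes were 0.06 ± 0.19 (adjusted p = 0.972), -0.09 ± 0.19 (adjusted p = 0.638) and -0.02 ± 0.17 (adjusted p = 0.469) for sensitive versus vehicle, resistant versus sensitive and resistant versus vehicle.

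ELF3 (chr1:202007945-202017188, plus strand), an ETS factor of epithelial differentiation, had the largest upward difference that did not pass. It was at 152, 201, 222, 163 and 215 TPM in vehicle mice, 191, 197 and 188 TPM in sensitive mice, and 183, 228, 253, 259 and 230.1 TPM in resistant mice. In 4 of 5 resistant mice it was above every vehicle and every sensitive mouse. The change was 0.42 ± 0.11 in resistant versus vehicle tumors (adjusted p = 0.0590) and 0.30 ± 0.13 in resistant versus sensitive tumors (adjusted p = 0.180), while after 3 days it was 0.10 ± 0.13 (adjusted p = 0.930). The difference from vehicle in resistant tumors passed in 7 of 26 alternatives, among them quantile normalization (adjusted p = 0.0177), median-of-ratios scaling (adjusted p = 0.00661), the fit over 26 libraries with a block for the library letter (adjusted p = 0.00791) and leaving out vehicle mouse 1-5 (adjusted p = 0.0262), vehicle mouse 1-9 (adjusted p = 0.0465) or resistant mouse 9-3 (adjusted p = 0.0171).

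The 3 AP-2 genes changed by different amounts, and their mean levels lay closer together in resistant than in vehicle tumors. TFAP2B, TFAP2A and TFAP2C averaged 105, 64.8 and 49.8 TPM in vehicle and 49.6, 50.3 and 55.6 TPM in resistant tumors. TFAP2B (chr6:50818723-50847613, plus strand) was at 112, 116, 98.6, 90.8 and 107 TPM in vehicle mice, 116, 71.9 and 79.9 TPM in sensitive mice, and 48.6, 47.3, 65.6, 45.9 and 40.8 TPM in resistant mice. All 5 resistant mice were below all other mice, while the sensitive mice ran from below the vehicle range to its top. TFAP2B fell by 0.94 ± 0.14 in resistant versus vehicle tumors (adjusted p = 5.25e-05) and by 0.78 ± 0.16 in resistant versus sensitive tumors (adjusted p = 0.00341). Both calls were kept in all 26 alternatives. After 3 days the difference from vehicle was -0.18 ± 0.16 (adjusted p = 0.289), which passed with weights per mouse (adjusted p = 0.0188) and without sensitive mouse 6-4 (adjusted p = 0.0490). The vehicle mean was 2.12 times the resistant mean.

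TFAP2A (chr6:10393186-10419659, minus strand), whose product can pair with the other AP-2 proteins, was at 69.7, 69.6, 70.0, 54.2 and 60.3 TPM in vehicle mice, 63.2, 54.4 and 51.5 TPM in sensitive mice, and 49.5, 49.1, 54.1, 45.8 and 52.9 TPM in resistant mice. The highest resistant mouse lay just under the lowest vehicle mouse. TFAP2A fell by 0.22 ± 0.09 in resistant versus vehicle tumors (adjusted p = 0.00487), also in all 26 alternatives. Its difference was -0.11 ± 0.10 against sensitive tumors (adjusted p = 0.272) and -0.12 ± 0.10 after 3 days (adjusted p = 0.202), the latter passing with weights per mouse (adjusted p = 0.0162).

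TFAP2C (chr20:56629302-56639283, plus strand), an AP-2 factor that acts on the estrogen receptor gene, was the one factor of the 10 that rose. It was at 39.0, 44.4, 61.8, 53.4 and 50.7 TPM in vehicle mice, 38.7, 40.1 and 46.0 TPM in sensitive mice, and 49.99, 60.0, 61.5, 47.7 and 58.8 TPM in resistant mice. The resistant mice were all above the sensitive mice but lay inside the vehicle range. The rise from sensitive to resistant tumors was 0.45 ± 0.13 (adjusted p = 0.0429). It was lost in 9 of 26 alternatives: with no filter (adjusted p = 0.0654), with the A libraries alone (adjusted p = 0.0767), and without vehicle mouse 1-9 (adjusted p = 0.0545), any of the sensitive mice 6-4, 6-5 and 6-6 (adjusted p = 0.155, 0.130 and 0.0505) or resistant mice 9-6, 9-7 and 9-9 (adjusted p = 0.0855, 0.0831 and 0.0742). The change itself was 0.38 to 0.53 over the 26 alternatives, lowest without mouse 6-4 and highest without mouse 6-6. In resistant versus vehicle tumors the difference was 0.30 ± 0.11 (adjusted p = 0.256), and after 3 days it was -0.17 ± 0.13 (adjusted p = 0.234).

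Summed over the 3 genes, AP-2 transcripts were at 219.6 ± 13 TPM in vehicle, 187 ± 27.1 in sensitive and 155 ± 15.7 in resistant tumors. TFAP2B made up 47.8% ± 3.43 (SD, n = 5) in vehicle, 47.2% ± 5.34 in sensitive (n = 3) and 31.8% ± 3.52 in resistant tumors (n = 5), and the highest resistant share, 36.2%, was under the lowest share elsewhere, 42.8%. TFAP2C made up 22.8% ± 4.25, 22.6% ± 4.30 and 35.8% ± 2.46, and its lowest resistant share, 33.8%, was above the highest elsewhere, 26.9%. The TFAP2A share stayed between 27.3% and 34.7% in all 13 mice. TFAP2B exceeded TFAP2C in 5 of 5 vehicle mice, 3 of 3 sensitive mice and 1 of 5 resistant mice, and the ratio of the 2 was 2.18 ± 0.56, 2.18 ± 0.71 and 0.90 ± 0.15. These shares are given as descriptions and were not tested.

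**Figure D3:**
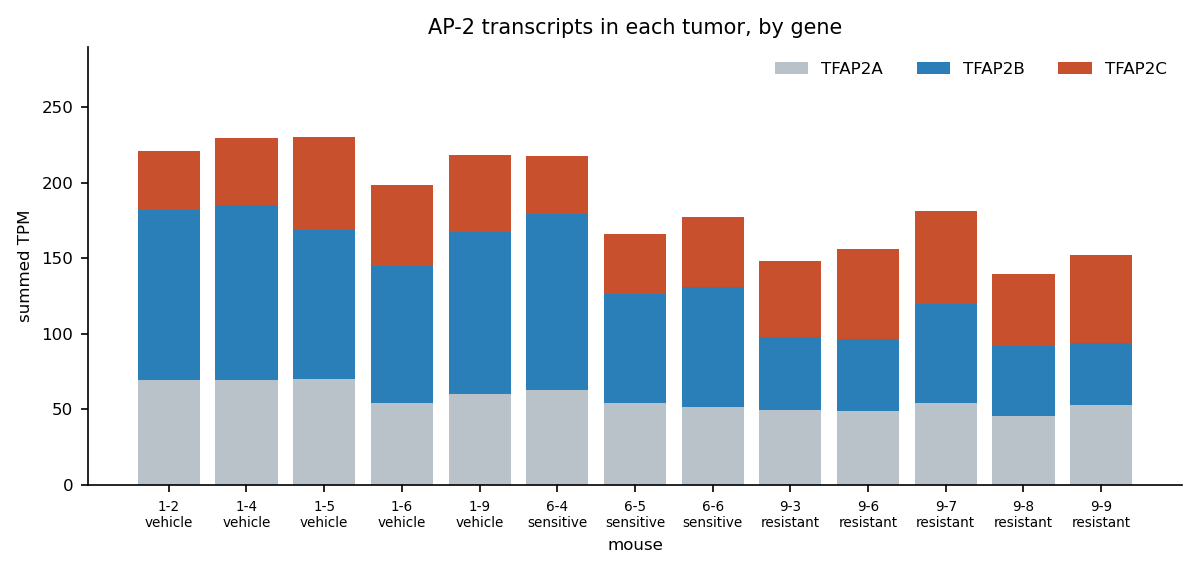
TPM of TFAP2A, TFAP2B and TFAP2C stacked for each of the 13 mice (x axis; y axis, summed TPM, starting at 0). The TFAP2B segment shrinks in the 5 resistant mice to 40.8 to 65.6 TPM, while the TFAP2C segment stays at 47.7 to 61.5 TPM.

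TBX3 (chr12:114670254-114684164, minus strand) was at 13.1, 15.6, 11.9, 9.36 and 11.3 TPM in vehicle mice, 15.8, 10.7 and 11.7 TPM in sensitive mice, and 5.73, 6.81, 6.89, 7.84 and 8.42 TPM in resistant mice. Every resistant mouse was below every other mouse, and the vehicle and sensitive ranges overlapped. TBX3 fell by 0.70 ± 0.16 in resistant versus sensitive tumors (adjusted p = 0.00602) and by 0.56 ± 0.14 in resistant versus vehicle tumors (adjusted p = 0.00139). After 3 days its difference from vehicle was 0.13 ± 0.16 (adjusted p = 0.851).

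SOX9 (chr17:72121020-72126420, plus strand) followed the same course at a higher level. It was at 38.9, 49.2, 30.4, 34.6 and 44.8 TPM in vehicle mice, 44.3, 41.1 and 36.4 TPM in sensitive mice, and 27.8, 21.6, 29.5, 22.2 and 16.1 TPM in resistant mice. The resistant mice were again below all others, the highest of them 1 TPM under the lowest vehicle mouse. SOX9 fell by 0.75 ± 0.18 in resistant versus sensitive tumors (adjusted p = 0.00864) and by 0.61 ± 0.16 in resistant versus vehicle tumors (adjusted p = 0.00204). After 3 days the difference was 0.13 ± 0.18 (adjusted p = 0.876). The calls of TBX3 and SOX9 against both other groups were kept in all 26 alternatives.

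SOX2 (chr3:181711924-181714436, plus strand) had the largest change of the 10 and the widest spread. It was at 14.7, 30.6, 7.22, 18.04 and 31.6 TPM in vehicle mice, 33.4, 12.3 and 13.9 TPM in sensitive mice, and 2.20, 2.03, 7.36, 2.22 and 2.09 TPM in resistant mice. In 4 resistant mice SOX2 was near 2 TPM, below every other tumor, while resistant mouse 9-7 was as high as the lowest vehicle mouse. SOX2 fell by 2.27 ± 0.46 in resistant versus sensitive tumors (adjusted p = 0.00424) and by 2.19 ± 0.40 in resistant versus vehicle tumors (adjusted p = 4.96e-04), both kept in all 26 alternatives. The vehicle mean, 20.4 ± 10.5 TPM, was 6.43 times the resistant mean, 3.18 ± 2.34 TPM. Without mouse 9-7 the resistant mean was 2.13 ± 0.09 TPM and the fall from vehicle was 2.47 (adjusted p = 1.86e-04). After 3 days the difference was 0.06 ± 0.46 (adjusted p = 0.993). The sensitive mean of 19.9 ± 11.7 TPM rested on mouse 6-4 and was 13.1 ± 1.2 TPM without it. SOX2-OT, a non-coding gene that overlaps SOX2 on the same strand, was at 0.05 to 0.42 TPM in all mice.

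Within a mouse, SOX9 was 1.42 to 4.22 times SOX2 in vehicle mice, 1.33 to 3.35 times in sensitive mice and 4.00 to 12.7 times in resistant mice, the lowest of the last being mouse 9-7. SOX2 exceeded TBX3 in 4 of 5 vehicle, 3 of 3 sensitive and 1 of 5 resistant mice.

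Of 47 relatives in the GATA, FOXA, ETS, AP-2, T-box and SOX families, 19 passed the filter. From the ETS family only ELF genes and EHF were listed. In sensitive versus vehicle tumors 2 of the 19 fell, ELF4 and ELF5. In resistant versus sensitive tumors 5 fell (SOX12, SOX18, ELF5, EHF and MGA). Against vehicle, 10 fell and 4 rose in resistant tumors. The shares of all tested genes are the background for these counts and those of the lists below. They were 12.6% lower and 3.16% higher in sensitive versus vehicle, and 11.6% and 9.56% in resistant versus sensitive tumors. In resistant versus vehicle tumors they were 32.5% lower and 11.5% higher. ELF5, the ETS factor that drives milk-producing alveolar cells, stepped down from 7.47 ± 1.11 to 4.80 ± 0.33 and 2.78 ± 0.55 TPM in vehicle, sensitive and resistant tumors, and the last was lower than vehicle by limma (-1.04 ± 0.12, adjusted p = 1.30e-05). EHF, an epithelial ETS factor at a level close to ELF3, was at 193 ± 39.5, 215 ± 44.5 and 117 ± 42.5 TPM and fell by 0.87 ± 0.25 from sensitive to resistant tumors (adjusted p = 0.0193). ELF4 fell by 0.43 ± 0.09 (adjusted p = 2.87e-04) and ELF2 by 0.35 ± 0.09 (adjusted p = 8.95e-04) in resistant versus vehicle tumors. With EHF and ELF5, 4 of the 5 tested ELF and EHF relatives were therefore lower than in vehicle, and ELF1 rose (0.65 ± 0.17, adjusted p = 0.0249).

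Among the SOX relatives, SOX18 fell by 1.11 ± 0.17 in resistant versus vehicle tumors (adjusted p = 7.31e-05), and SOX12 and SOX13 also fell. SOX3, of the same subgroup as SOX2, rose from 1.18 ± 0.33 to 2.29 ± 0.37 TPM (0.73 ± 0.15, adjusted p = 0.00550), and SOX5 rose from 2.14 ± 0.86 to 4.17 ± 1.62 TPM (adjusted p = 0.0213). In the resistant tumors SOX2 was at 3.18 ± 2.34 TPM. Of the T-box genes, TBX1 rose and MGA and TBX6 fell, while TBX2, the closest relative of TBX3, did not reach 1 TPM in any group. GATA2, the next highest GATA gene, was at 11.5 ± 2.04, 7.91 ± 2.55 and 11.5 ± 1.98 TPM and passed no test. FOXA3, at a lower level than FOXA1, fell by 0.20 ± 0.10 (adjusted p = 0.0166) in resistant versus vehicle tumors. No further AP-2 gene reached 1 TPM, so TFAP2A, TFAP2B and TFAP2C were the AP-2 genes with a measurable level.

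**Figure D4:**
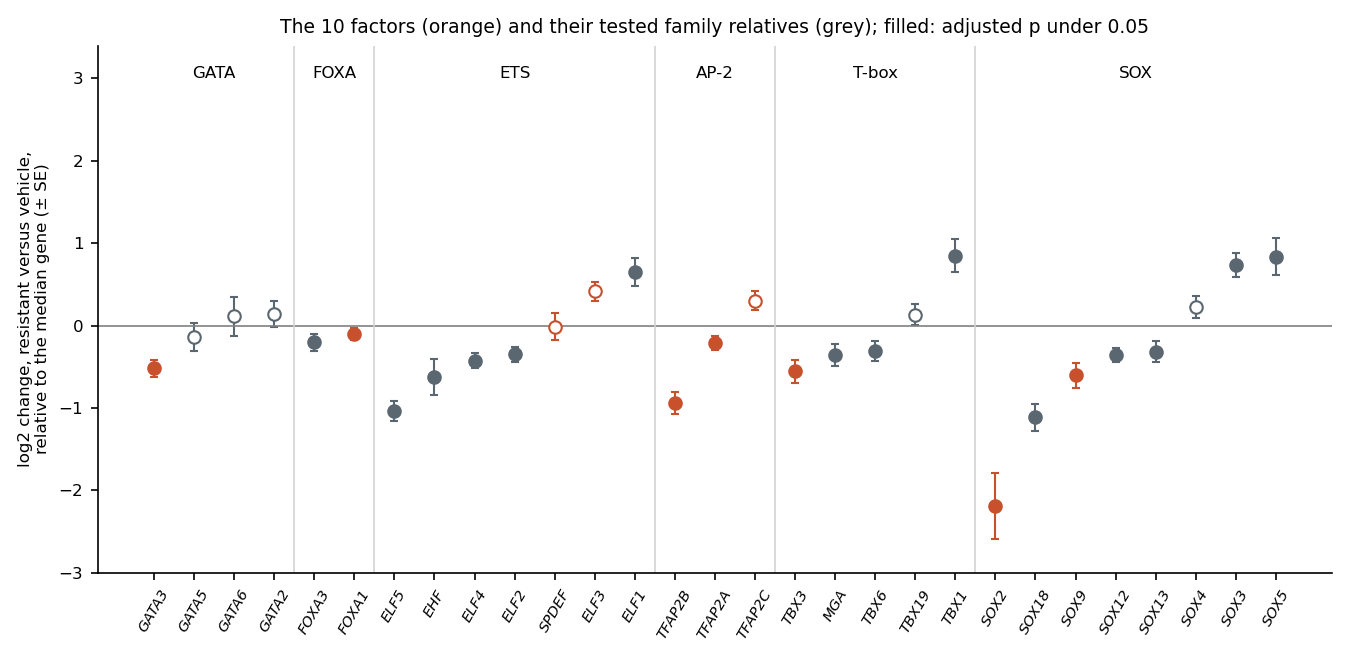
Log2 change in resistant versus vehicle tumors relative to the median gene (y axis, ± SE from limma) for the 10 factors (orange) and their 19 tested relatives (grey), by family. Filled circles have an adjusted p under 0.05; SOX2 at -2.19 lies lowest, and TFAP2B at -0.94 lies below TFAP2A and TFAP2C.

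Other luminal transcription factors moved both ways. Of 18 tested, 3 rose and 1 fell in sensitive versus vehicle, 3 rose and 7 fell in resistant versus sensitive, and 6 rose and 5 fell in resistant versus vehicle tumors. ELF5 and EHF are also counted among the relatives above, and KLF4 also among the stem and progenitor factors below. ESR1, the estrogen receptor with which FOXA1 and GATA3 act, was at 113 ± 59.0, 104 ± 26.8 and 98.6 ± 20.3 TPM and passed no test (adjusted p = 0.871 in resistant versus vehicle). PGR, a progesterone receptor gene induced by estrogen, rose by 1.63 ± 0.38 after 3 days (adjusted p = 0.0136) and by 2.32 ± 0.33 in resistant tumors against vehicle (adjusted p = 1.88e-04). RUNX1, BHLHE40, MYB, XBP1 and KLF4 also rose in resistant versus vehicle tumors, and ELF5, EHF, TRPS1, GRHL1 and GRHL2 fell. TRPS1, a GATA-type repressor, was at 137 ± 18.5 and 101 ± 12.0 TPM in vehicle and resistant tumors (adjusted p = 0.00560).

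Of the partners of the GATA3, FOXA1 and AP-2 proteins, 1 of 19 tested fell after 3 days (TLE1, a co-repressor, -0.65 ± 0.14, adjusted p = 0.00280). In resistant versus vehicle tumors 3 rose and 8 fell. CITED1 rose by 2.19 ± 0.34 (adjusted p = 3.92e-04) and CITED4 by 0.65 ± 0.18 (adjusted p = 0.0305), while CITED2, a co-activator of AP-2, fell by 0.30 ± 0.11 (adjusted p = 0.00635). The co-repressor NRIP1 rose by 1.64 ± 0.20 (adjusted p = 7.42e-05) and the co-activator NCOA3 fell by 0.78 ± 0.12 (adjusted p = 7.93e-05).

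Luminal epithelial markers rose more often than they fell. Of 22 tested, 2 rose and 1 fell in sensitive versus vehicle, 11 rose and 1 fell in resistant versus sensitive, and 10 rose and 5 fell in resistant versus vehicle tumors. Their summed level was 14137 to 18443 TPM in vehicle, 16213 to 20618 in sensitive and 34827 to 39845 TPM in resistant mice. TFF1, a secreted trefoil peptide induced by estrogen, made up much of that difference, with means of 988 ± 941 TPM in vehicle and 12018 ± 2735 TPM in resistant tumors. TFF3, another trefoil peptide, rose by 3.13 ± 0.24 in resistant versus vehicle tumors (adjusted p = 1.33e-06), MUC1 by 2.01 ± 0.22 (adjusted p = 2.67e-05) and the luminal keratin KRT19 by 0.93 ± 0.14 (adjusted p = 6.76e-04). PROM1, CLDN3, CLDN4, EPCAM and ERBB3 were the 5 that fell, PROM1 by 1.28 ± 0.21 (adjusted p = 1.77e-04).

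Of 20 basal and myoepithelial markers, 11 were tested: 3 rose and 3 fell in sensitive versus vehicle, 3 rose and 4 fell in resistant versus sensitive, and 2 rose and 5 fell in resistant versus vehicle tumors. The basal keratin KRT14 was at 5.40 ± 3.56 TPM in vehicle, 11.5 ± 5.55 in sensitive and 0.42 ± 0.29 TPM in resistant tumors, lower in the last than in sensitive (-3.0 ± 0.47, adjusted p = 0.00102) and than in vehicle tumors (-1.81 ± 0.41, adjusted p = 0.00204). KRT17 rose after 3 days (1.18 ± 0.30, adjusted p = 0.0249), and in resistant tumors KRT16 and KRT17 were lower than in both other groups. KRT15 rose from 13.4 ± 4.64 TPM in sensitive to 39.4 ± 11.2 TPM in resistant tumors (1.54 ± 0.35, adjusted p = 0.0110). ITGA6 rose in the same comparison (1.97 ± 0.21, adjusted p = 1.40e-04), and SFN fell in sensitive versus vehicle (-1.10 ± 0.10, adjusted p = 1.83e-06). KRT5 and TP63, which define basal cells, stayed under 1 TPM in every mouse. Of the factors that drive epithelial-mesenchymal transition, 6 were tested and 1, TWIST1, fell after 3 days (-1.03 ± 0.22, adjusted p = 0.00374) and was lower in resistant than in vehicle tumors.

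Stem and progenitor factors outside the 10 went both ways. Of 11 tested, 3 rose (ID1, ID3 and KLF4) and 3 fell (EZH2, ID2 and ALDH1A3) in resistant versus vehicle tumors. ALDH1A3, an aldehyde dehydrogenase used as a progenitor marker, fell by 1.07 ± 0.17 (adjusted p = 9.29e-05). Of 10 neuroendocrine markers, 4 were tested, and 1 fell in resistant versus vehicle tumors. POU2F3, a factor of tuft cells, fell from 12.3 ± 2.65 TPM in vehicle to 5.74 ± 2.22 TPM in resistant tumors (-0.87 ± 0.20, adjusted p = 0.00162).

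All 15 proliferation markers fell after 3 days. In resistant tumors 14 of 15 were higher than in sensitive tumors, and 11 of 15 were lower than in vehicle tumors. Their summed level was 1053 to 1388 TPM in vehicle, 143 to 244 in sensitive and 326 to 679 TPM in resistant mice. Human leukocyte markers summed to 4.80 to 8.99 TPM in vehicle, 7.68 to 14.2 in sensitive and 10.4 to 17.5 TPM in resistant mice. In resistant versus vehicle tumors 3 of 6 tested rose and 1 fell, with LYZ and CD68 rising by the most. The defining leukocyte gene PTPRC was at 0 in all treated mice. Fibroblast markers summed to 4.58 to 13.3 TPM over all mice, endothelial markers to at most 1.21 TPM with none of 8 reaching the filter, and adipocyte markers to at most 1.70 TPM. The part of these cell types and of proliferation in the changes of the 10 factors was not tested.

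The pattern of each called factor over the 13 mice was compared with that of 10570 genes with a mean of at least 5 TPM. Likeness was measured as the root mean square difference of log2(TPM + 1) values after each gene was centred, so 0 is the same pattern. SOX2 was closest to S100A8 (0.33), S100A9 (0.43) and TM4SF1 (0.51). S100A8 was at 18.9, 24.8 and 3.58 TPM and SOX2 at 20.4, 19.9 and 3.18 TPM in vehicle, sensitive and resistant tumors. TFAP2B was closest to SPTLC2 (0.09), CD24 (0.11) and RAB15 (0.14), and CD24, a surface marker of luminal cells, was at 422, 330.3 and 196 TPM. SOX9 was closest to NOTCH3 (0.18), LGALSL and TLE2, GATA3 to ZFYVE19 (0.09), IMMP1L and LEO1, and TBX3 to ZNF830 (0.14), EIF4A2 and ARID4B. TFAP2C was closest to GLA (0.10), TXNDC11 and PAK1, FOXA1 to ATXN7L3 (0.05), ADAM10 and BAG6, and TFAP2A to MIOS (0.06), SMG6 and TRAF6.

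Among the 10 themselves, the closest pair was FOXA1 and TFAP2A, at 0.11, and the farthest was SOX2 and TFAP2C, at 1.44. TFAP2B was closer to SOX9 (0.24) and TBX3 (0.28) than to TFAP2A (0.38) or TFAP2C (0.67), its own family. TFAP2C was closest to ELF3 (0.21). These distances share the same 13 mice and libraries, and depend on how far a gene moved as well as on the direction, so they are descriptions only.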

How the data were processed

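The authors deposited 1 table of TPM per library, and TPM is their unit; FastQC, STAR, HTSeq, RSEM and the builds GRCh38 and GRCm38 are named, without versions, in the submitters' processing notes. The sources used here do not say how mouse reads were handled. Of 30332 entries, 1 names no gene (1.49 to 5.51 TPM) and was left out. TPM sums were 999847 to 999887 per library. Depth is unknown, so no counting interval is given.

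Per mouse, log2(TPM + 1) was averaged over its A and B library. One limma trend model (limma 3.58.1, R 4.3.3) covered 13 mice and the 3 comparisons. The median changes taken off were -0.07 (sensitive versus vehicle), -0.05 (resistant versus sensitive) and -0.14 (resistant versus vehicle); the last was -0.002 with median-of-ratios scaling and -0.03 with quantile normalization. Nothing says that more than 1 culture of the line was implanted, so p-values measure the spread between mice. All samples carry the batch label 1. The model was tested on simulated data with 14079 genes: of 100 genes changed by 1 log2 unit, it recovered 91%, 89% and 95% in sensitive versus vehicle, resistant versus sensitive and resistant versus vehicle, and of 100 changed by 0.5, 56%, 45% and 62%. False calls were 6.37%, 6.94% and 4.27% of all calls. The changed genes had a vehicle level of about 5 TPM or more, and the simulated noise was normal and independent between genes. Far fewer genes were changed than were called in the real comparisons, so these rates need not hold for the real data.

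The members and lists were chosen with earlier results of these data known. The genes named are the 10 factors, from each other list up to 4 tested genes per comparison by adjusted p, with ESR1, PGR, MKI67 and family relatives reaching 1 TPM, and the 3 genes nearest to each called factor. Genes named beyond these (GATA3-AS1, SOX2-OT, KRT5, TP63, PTPRC, TBX2, CITED2, CITED4, and others of the lists) were chosen after their values were seen. Some genes that the rule takes are not reported here but stay in the counts. Gene positions are from GENCODE 29 on GRCh38. Alternatives were 13 other settings and leaving out each of the 13 mice.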

Additional observations from a re-analysis of the deposited data

Results flagged for a closer look

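SOX2 in resistant mouse 9-7 was at 7.36 TPM, while the other 4 resistant mice were at 2.03 to 2.22 TPM. The gap to the nearest mouse was 0.96 of the group's range, above Dixon's 95% critical value of 0.71 for 5 samples. This was the one value that stood apart in this way among 20 groups of 5 mice, and chance marks about 1 in 20. Both libraries of the mouse gave it, at 7.97 and 6.75 TPM. In the same mouse TFAP2B, at 65.6 TPM, GATA3, at 302 TPM, and SOX9, at 29.5 TPM, were each the highest of the resistant group. So were TFAP2A, at 54.1 TPM, and TFAP2C, at 61.5 TPM, the factor that rose from sensitive to resistant tumors. FOXA1, SPDEF, ELF3 and TBX3 were not highest in this mouse. TBX3 was at 6.89 TPM there and at 8.42 TPM in mouse 9-9.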

How the results depend on the processing

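Over 26 alternatives, the falls of TFAP2B, TBX3, SOX2 and SOX9 in resistant versus sensitive tumors and of GATA3, TFAP2A, TFAP2B, TBX3, SOX2 and SOX9 in resistant versus vehicle tumors kept their direction and their call. Of 780 results for single factors, 736 kept both, 15 lost a call, 13 gained one and 16 changed sign, all without a call; the causes were not tested. Changed signs in sensitive versus vehicle were FOXA1 with no filter (-0.037) and the B libraries alone (-0.031), and, with weights per mouse, TBX3 (-0.033), SOX2 (-0.45) and SOX9 (-0.017). SPDEF in resistant versus vehicle turned positive with a filter of 5 TPM (0.0023) and the A libraries alone (0.0012). Leaving out single mice, the range was -0.021 to 0.061 for FOXA1, -0.0014 to 0.15 for SPDEF and -0.33 to 0.31 for SOX2 in sensitive versus vehicle, and -0.24 to 0.0043 and -0.17 to 0.082 for SPDEF in resistant versus sensitive and versus vehicle.

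Counts of factors that rose in resistant versus sensitive were 0 with no filter and the A libraries alone and 2 with 26 libraries and the mouse as a random effect. In resistant versus vehicle 1 factor rose with median-of-ratios scaling, quantile normalization, 26 libraries with a random effect and the replicate block. Factors that fell in sensitive versus vehicle were 0 with quantile normalization and with the 2 groups alone, and 3 with weights per mouse. Leaving out single mice gave 0 to 1 risen in resistant versus sensitive, 0 to 1 risen in resistant versus vehicle, and 0 to 2 fallen in sensitive versus vehicle. Over all genes, sensitive versus vehicle gave 771 higher and 1066 lower with median-of-ratios scaling, 938 and 989 with quantile normalization, 1023 and 3390 with weights per mouse, 237 higher with the A libraries alone and 239 higher with the 2 groups alone. Resistant versus sensitive gave 1081 lower with the A libraries alone and 2036 higher with weights per mouse. Resistant versus vehicle gave 2540 higher and 2439 lower with median-of-ratios scaling and 2773 lower with quantile normalization. Without single mice, sensitive versus vehicle gave 99 (without mouse 6-5) to 544 higher and 802 (without mouse 6-5) to 1911 lower, and resistant versus sensitive gave 675 (without mouse 6-5) to 1594 higher and 690 (without mouse 6-4) to 1977 lower; without mouse 6-6 the first of these were 110 and 964, and without vehicle mouse 1-9 there were 288 higher.

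The library letters A and B pair nothing across mice: the A minus B deviations of 2 groups correlated at -0.004, -0.05 and -0.05 over 14079 genes. With the letter as a replicate block, 0 factors rose and 1 fell, 1 rose and 4 fell, and 1 rose and 7 fell in the 3 comparisons, and 607 genes rose and 2147 fell, 1559 rose and 1909 fell, and 1614 rose and 4696 fell. Depth is unknown, so what it limits for low genes such as SOX2 in resistant tumors was not measured.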
